A study of Schizosaccharomyces pombe with 4 samples.

Results

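Chromatin of fission yeast cells that carry HA-tagged Cdk11 gave 202 runs of neighbouring array probes with relatively more Cy5 than Cy3 signal. A run was a stretch of at least 3 neighbouring probes, with centres at most 1000 bp apart. Each of its probes was at least 1.5-fold to the Cy5 side of the array median in the means of both immunoprecipitations. The runs held 983 of the 41214 genomic probes with a value in both means, which is 2.39% of them. The same rule turned to the Cy3 side gave 14 runs with 43 probes, or 0.104%. The runs were chosen by the ratio of both channels on all 4 arrays, so their ratios are given as a description, with no test.

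The arrays come from 1 group and were printed with oligonucleotide probes along the genome. The group was the fission yeast Schizosaccharomyces pombe, wild type apart from an HA epitope tag on Cdk11, grown at 32 °C in the rich medium YES to mid-log phase. Cells were fixed for 10 min in 3% formaldehyde and the chromatin was sheared to about 500 bp, precipitated with an anti-HA monoclonal antibody and amplified by ligation-mediated PCR. There were 2 independent immunoprecipitations, each hybridised on 2 arrays with input DNA in the other channel: replicates 1 and 3 hold the first, replicates 2 and 4 the second. The measure is log2(Cy3/Cy5) minus the median of its array, so a negative value means relatively more Cy5. The labels give Cy3 to the immunoprecipitate and Cy5 to the input, while the deposited ratio table runs as Cy5 over Cy3. The files do not settle which dye held the immunoprecipitate: a run is a region poor in the precipitate if the labels hold, and a region rich in it if the dyes were the other way round. No untagged strain, mock precipitation or dye-swapped array was analysed here, and the errors below are SDs of the means of the 2 immunoprecipitations (n = 2).

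Cdk11 is a cyclin-dependent kinase that works with an L-type cyclin, and the series concerns its relation to Mediator, the complex that links transcription factors to RNA polymerase II. In growing fission yeast a small number of genes, among them those of glycolysis and of the ribosome, make a large part of the messenger RNA, and their coding sequences use a narrow set of codons. Many ribosomal protein genes of this yeast have a HomolD box, a core promoter element that stands in for a TATA box, often with a HomolE box beside it. The phosphate genes pho84, pho1 and tgp1 each lie downstream of a long non-coding RNA whose transcription runs into the gene's promoter and keeps it low in phosphate-rich medium.

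Promoters of 6 genes named below show the elements that the lead genes of the runs share or lack. The lead gene of a run is the coding gene whose ORF holds the most of its probes or, in a tie, of its length. Each sequence gives the 250 bases before the annotated gene start, 5′ to 3′ on the gene's strand, from the RefSeq assembly ASM294v3. Capitals mark the HomolD box (CAGTCACA or CAGTCACG), the HomolE box (CCCTACCCT) and the TATA box (TATAAA), each searched on both strands. A box here is an exact match of these letters, and its use as a promoter element was not tested. The positions are chrIII:2096037-2096286 (minus strand) for rps2, chrI:1512391-1512640 (minus) for rps2202, chrIII:1685395-1685644 (plus) for tef3, chrI:1823431-1823680 (minus) for psu1, chrIII:1591042-1591291 (plus) for adh1 and chrII:4443851-4444100 (plus) for pho84.
rps2: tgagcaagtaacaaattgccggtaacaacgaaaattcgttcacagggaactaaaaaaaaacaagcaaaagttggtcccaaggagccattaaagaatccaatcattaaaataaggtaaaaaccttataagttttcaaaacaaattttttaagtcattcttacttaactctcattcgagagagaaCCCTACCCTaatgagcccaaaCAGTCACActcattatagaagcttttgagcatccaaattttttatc
rps2202: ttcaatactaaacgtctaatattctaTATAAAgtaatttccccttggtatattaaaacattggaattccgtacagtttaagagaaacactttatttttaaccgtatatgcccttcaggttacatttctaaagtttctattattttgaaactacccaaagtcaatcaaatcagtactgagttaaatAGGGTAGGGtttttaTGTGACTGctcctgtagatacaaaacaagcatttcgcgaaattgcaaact
tef3: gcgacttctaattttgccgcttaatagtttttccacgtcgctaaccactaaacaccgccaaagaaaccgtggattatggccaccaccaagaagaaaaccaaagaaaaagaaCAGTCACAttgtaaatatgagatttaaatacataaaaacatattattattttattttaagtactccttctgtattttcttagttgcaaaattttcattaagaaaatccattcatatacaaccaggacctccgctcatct
psu1: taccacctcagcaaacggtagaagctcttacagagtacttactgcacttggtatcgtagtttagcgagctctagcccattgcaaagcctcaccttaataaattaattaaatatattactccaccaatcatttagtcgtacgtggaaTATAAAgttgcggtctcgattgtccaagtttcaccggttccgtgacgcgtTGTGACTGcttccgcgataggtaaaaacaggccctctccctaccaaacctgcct
adh1: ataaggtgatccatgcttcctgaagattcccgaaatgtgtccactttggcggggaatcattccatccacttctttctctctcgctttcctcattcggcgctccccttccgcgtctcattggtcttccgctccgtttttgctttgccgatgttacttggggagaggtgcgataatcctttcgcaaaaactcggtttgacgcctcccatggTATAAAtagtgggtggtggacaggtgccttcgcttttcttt
pho84: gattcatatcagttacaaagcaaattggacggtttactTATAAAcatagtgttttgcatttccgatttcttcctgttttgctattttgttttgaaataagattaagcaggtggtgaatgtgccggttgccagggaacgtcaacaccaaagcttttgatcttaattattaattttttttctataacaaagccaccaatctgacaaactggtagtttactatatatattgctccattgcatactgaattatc

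The ribosomal protein genes rps2 and rps2202 each held a HomolE box, 67 and 65 bases before the gene start, and a HomolD box, 46 and 50 bases before it. In rps2202 both were on the opposite strand, and a TATA box stood 224 bases before the start. The elongation factor gene tef3 and psu1, which the annotation calls a beta-glucosidase, held a HomolD box 139 and 54 bases before the start. The box of psu1 was on the opposite strand, behind a TATA box at 104 bases. adh1, for alcohol dehydrogenase, held neither a HomolD nor a HomolE box and had a TATA box at 41 bases. In pho84, for the phosphate transporter, the only exact match was TATAAA at 212 bases. Looser TATA-like letters, such as the tatatatat nearer its gene start, were not searched. Among all 144 lead genes with a probe in their ORF, 45 (31.3%) held a HomolD box, against 148 of the 4202 measured coding genes (3.52%). Of the 40 ribosomal protein genes among the lead genes, 33 held the box, and so did 88 of all 108 measured ones (82.5 and 81.5%). Without ribosomal protein genes the shares were 12 of 104 (11.5%) and 60 of 4094 (1.47%). These 12 lead genes were psu1, rlp7, tef3, cpc2, sks2, mcp60, byr3, tpi1, ilv5, sam1, bip1 and pre10. Ribosomal protein genes were taken by symbol, which leaves cpc2 among the others although the annotation calls it the 40S ribosomal protein RACK1. The HomolE box stood in 18 lead genes (12.5%) and in 63 of all measured genes (1.499%), and all 18 were ribosomal protein genes. The TATA box was about as common in lead genes (43.1%) as in all measured genes (44.8%).

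The runs were short and spread over the chromosomes. Their length had a median of 844 bp and went from 391 to 5218 bp, 230.25 kb in all. The number of probes had a median of 4: 84 runs had 3 probes, 45 had 4, and 11 had 10 or more. Chromosome I held 93 runs, chromosome II 76 and chromosome III 33, or 16.7, 17.0 and 13.7 per Mb, and none of the 52 measured mitochondrial probes lay in a run. Neighbouring runs were a median of 38595 bp apart, and 11 of the 199 gaps were under 1 kb. Probes past the threshold on the Cy5 side made up 6.68% of all measured probes (2752), and 35.7% of them lay in runs. On the Cy3 side 4.17% of the probes (1718) were past it, and 2.50% of these lay in runs.

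The mean of a run had a median of -1.35, which is 2.56-fold relatively more Cy5, and went from -2.36 to -0.79. In 185 runs it was at least 2-fold, and in 13 at least 4-fold. By immunoprecipitation, the median was -1.51 for the first and -1.24 for the second, and the SD over both had a median of 0.22. The first immunoprecipitation had the lower value in 175 of the 202 runs. All 202 runs were below 0 on every array, and 184 were past the threshold on every array taken alone. Replicate 1 was the lowest array in 103 runs and replicate 4 the highest in 124. The arrays were not scaled to a common spread, and over all probes the SD was 1.08, 0.75, 0.86 and 0.63 on replicates 1 to 4. The median run probe stood at -1.71, -1.46, -1.60 and -1.20, so wider arrays had lower run values. The part of the spread in the differences between arrays, here and in the runs below, was not tested. Over all probes the arrays correlated weakly, with r from 0.17 to 0.28 across probes, and arrays of the same immunoprecipitation (0.21 and 0.26) stood no closer than the others. The mirrored runs had a median mean of 0.97.

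**Figure D1:**
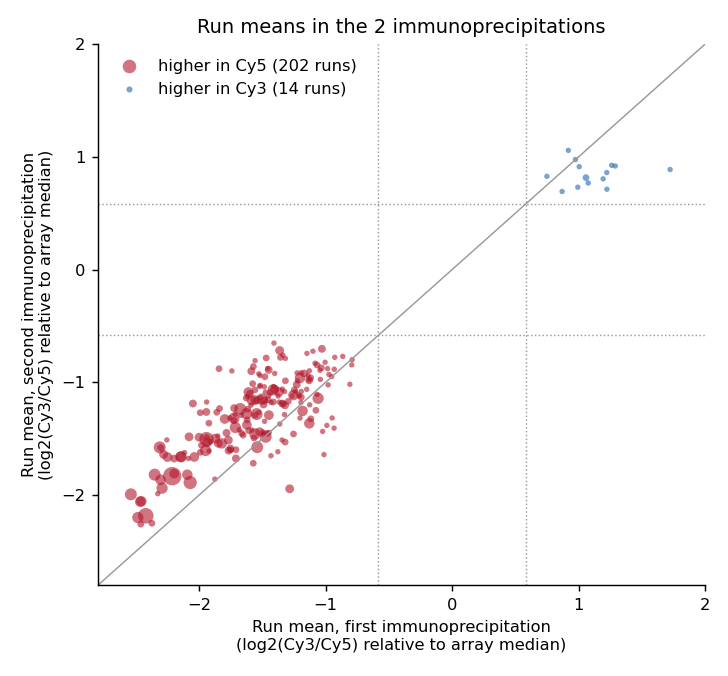
Mean log2(Cy3/Cy5) relative to the array median of each run in the first immunoprecipitation (horizontal axis) and the second (vertical axis). Red points are the 202 runs higher in Cy5, blue points the 14 mirrored runs, point size grows with the number of probes, dotted lines mark the 1.5-fold threshold and the grey line equality. Of the red points, 175 lie above the line of equality, with the first immunoprecipitation lower.

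The runs differed from the rest of the array in Cy5 and hardly in Cy3. On replicates 1 to 4, the median run probe was 1.84, 1.64, 1.72 and 1.36 above the array median of Cy5 on the log2 scale. In Cy3 it was 0.13, 0.17, 0.08 and 0.12 above. Averaged over both channels and all arrays, the median run probe ranked at percentile 94.6 of all probes in brightness, an average that includes the Cy5 signal that the rule favours. Both channels were well above local background on all arrays at 97.2% of run probes and at 68.7% of all probes. A saturated pixel occurred in 16 of the 983 run probes. After a loess correction of each array, which removes the average trend of the ratio with brightness, 105 runs were found and 64 of the 202 runs overlapped one of them. The median of the 202 run means was then -0.68, and 6 were above 0. The deposited table, whose values followed the loess-corrected ratios with r from 0.989 to 0.998 across probes, gave 102 runs and a median of -0.66 with the sign turned to Cy3 over Cy5. The part of brightness in the runs was not tested beyond these values.

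Of the 202 runs, 164 lay where the array's coordinates matched ASM294v3. The other 38 lay on the right part of chromosome I, where they did not, and have no gene names here. Among the matched runs, 148 overlapped the ORF of at least 1 coding gene (129 of them 1 gene and 19 of them 2) and 16 overlapped none. Of 4202 coding genes with a probe in the ORF, 159 overlapped a run (3.78%), against 7 (0.167%) for the mirrored runs. Further, 13 runs overlapped a snoRNA gene, 2 an snRNA gene, 1 a tRNA gene and 2 a 5S rRNA gene.

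The 20 matched runs with the lowest mean lay over single coding genes, over non-coding RNA genes and over 2 gene pairs. The lowest ran from the 3′ end of sol1, for a subunit of the SWI/SNF chromatin remodeller, across and beyond the gene of the small nucleolar RNA snoU14, on chromosome II from 1307900 to 1309177 in the array's coordinates. Its 4 probes averaged -2.44 and -2.48 on the arrays of the first immunoprecipitation and -2.37 and -2.15 on those of the second (mean -2.36, SD 0.14), a 5.13-fold difference. Only 1 of the 9 probes in the sol1 ORF belonged to it, and the sol1 ORF as a whole stood at -0.27. The run also overlapped the long non-coding RNA mamRNA, and its lowest probe lay 468 bp from snoU14. The run over snu2, the gene of the U2 spliceosomal RNA, averaged -2.59, -2.16, -2.53 and -1.97 on replicates 1, 3, 2 and 4 (mean -2.31, SD 0.09). Replicates 1 and 2, which belong to different immunoprecipitations, were the lower arrays.

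The adh1 run covered the whole ORF with 10 probes over 1967 bp. It stood at -2.56 and -2.52 in the first immunoprecipitation and at -2.002 and -1.98 in the second (mean -2.27, SD 0.39). The duplicate arrays lay closer to each other than the immunoprecipitations did, and all 4 values were far past the threshold. The ecm33 run, over a gene for a cell surface protein with leucine-rich repeats, stood at -2.40, -2.51, -2.31 and -1.80 on replicates 1, 3, 2 and 4 (mean -2.26, SD 0.28), with replicate 4 highest. ssa2, for a heat shock protein of the Hsp70 family, had a run of 10 probes at -2.43, -2.27, -2.06 and -1.57 (mean -2.08, SD 0.38), again with replicate 4 highest. The met26 run, over the methionine synthase gene, had 12 probes at -1.93, -2.21, -1.95 and -1.83 (mean -1.98, SD 0.13), and its arrays were the closest of the 4 runs from adh1 on. mfs3, a transporter of the spermidine family, had 10 probes at -2.54, -2.08, -1.69 and -1.47 (mean -1.94, SD 0.52). There the arrays of the 2 immunoprecipitations did not overlap, and the difference between them was among the 6 largest of the matched runs.

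**Figure D2:**
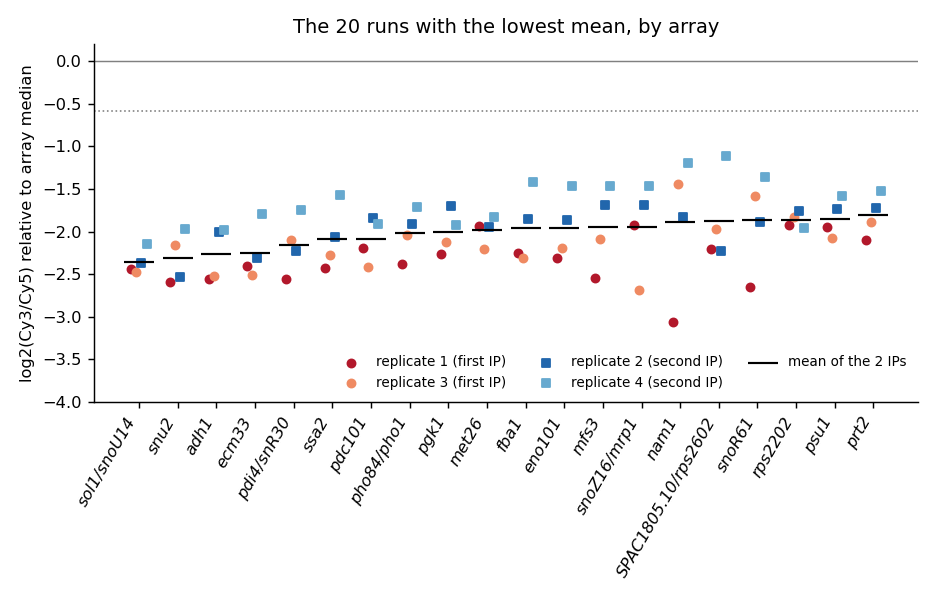
Mean log2(Cy3/Cy5) relative to the array median over the probes of the 20 matched runs with the lowest mean, named by the genes they overlap. Circles are the arrays of the first immunoprecipitation (IP), squares those of the second, bars the mean of both, and the dotted line the 1.5-fold threshold. Every array of every run shown lies below the threshold, from -3.06 to -1.12, and replicate 4 is the highest in 17 of the 20.

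Further runs with many probes lay over genes of different kinds. tef3, for translation elongation factor eEF3, had 14 probes over 3493 bp at -1.96, -1.93, -1.63 and -1.38 on replicates 1, 3, 2 and 4 (mean -1.72, SD 0.31). All 12 probes of its ORF were in the run. ptr2, a peptide transporter, stood at -1.78 (SD 0.24), ole1, the fatty acid desaturase, at -1.56 (SD 0.02), bip1, the Hsp70 of the endoplasmic reticulum, at -1.52 (SD 0.29), and sum3, an RNA helicase of translation initiation, at -1.45 (SD 0.24). but2 and SPBPB7E8.01, whose roles are not described here, stood at -1.46 (SD 0.31) and -1.51 (SD 0.07), with 10 and 9 probes. The run over eng1, the glucanase that opens the division septum, had 9 probes at -1.29, -1.72, -0.93 and -1.36 (mean -1.33, SD 0.25), and its immunoprecipitations overlapped.

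Runs lay on the 3′ side of their genes more often than on the 5′ side. Among the 148 runs over a coding gene, 73 took in the stop codon without the start codon of the lead gene, 35 lay inside the ORF, 29 covered the whole ORF and 11 took in the start codon alone. The run began a median of 234 bp after the start codon and ended a median of 253 bp past the stop codon. It reached at least 250 bp past the stop codon in 75 runs and at least 250 bp ahead of the start codon in 10. The probe with the lowest value lay upstream of the ORF in 7 runs, in its first 50% in 41, in its last 50% in 58 and past the stop codon in 42. Runs over the whole ORF had the lowest means (median -1.62), those inside the ORF the highest (median -1.20), and the latter lay in longer genes (median ORF 1878 bp, against 1173 bp).

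Counted by probe, 163 of the 787 run probes on matched coordinates (20.7%) lay within 500 bp after a stop codon only, as did 9.49% of all matched probes. Within 500 bp before a start codon only, the shares were 6.73% of run probes and 13.2% of all. Coding exons held 58.8% of run probes and 60.03% of all. Of the 75 runs that reached 250 bp past the stop codon, 43 (57.3%) faced a convergent neighbour, close to the 55.2% of all measured genes. The next ORF began a median of 920 bp away, against 522 bp for all. Of the 19 runs over 2 coding genes, 14 joined convergent genes, 3 tandem and 2 divergent ones. The orientation of all gene pairs near enough to share a run was not counted, so these numbers have no background. Some pairs rest on a short overlap: the runs covered 1.51% of the pgi1 ORF and 1.64% of the mis15 ORF, with 0 of their probes.

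Along the 145 lead genes, the mean ratio was -0.36 in the last 250 bp before the start codon and -0.77 in the first of 10 equal parts of the ORF. It was -0.999 in the next part and between -1.19 and -1.14 from the fifth part to the end of the ORF. In the 4 steps of 250 bp past the stop codon it was -1.17, -0.95, -0.54 and -0.21. The other genes stayed between -0.09 and 0.10 along the same path. They had their highest value in the 250 bp before the start codon and their lowest in the 250 bp after the stop codon. The rule itself sets a step at the border of a run. Probes inside averaged -1.503, those in the first 250 bp outside -0.33, those in the next 250 bp -0.26, and those 1500 to 1750 bp away 0.02. After the loess correction, 49 runs overlapped a coding gene, of which 26 took in the stop codon alone, 11 the start codon alone, 8 the whole ORF and 4 lay inside it.

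**Figure D3:**
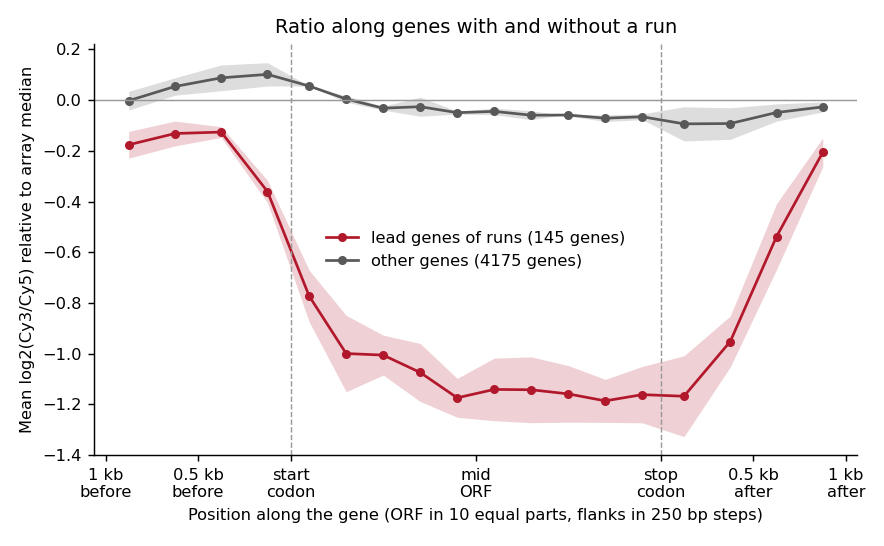
Mean log2(Cy3/Cy5) relative to the array median along the 145 lead genes of runs (red) and 4175 other genes (grey), with the ORF in 10 equal parts and 1 kb on either side in steps of 250 bp. Points are the mean of both immunoprecipitations and the bands span their 2 means. The red line falls from -0.36 before the start codon to -1.17 by mid ORF and returns only after the stop codon, past -0.95 and -0.54.

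The longest run joined the phosphate transporter gene pho84 and the acid phosphatase gene pho1, which follow each other on chromosome II. It had 22 probes over 5218 bp, from 4444227 to 4449444 in the array's coordinates, at -2.38 and -2.04 in the first immunoprecipitation and -1.91 and -1.71 in the second (mean -2.02, SD 0.27). The 7 probes of the pho84 ORF averaged -2.49 (SD 0.11), the 7 probes between the genes -1.71 (SD 0.12) and the 5 probes of the pho1 ORF -1.93 (SD 0.49). The lowest probe, at -3.13, lay inside pho84. Another 3 probes past the pho1 stop codon, averaging -1.83 (SD 0.63), closed the run.

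A separate run of 4 probes lay ahead of pho84, over the non-coding RNA prt2 that is annotated from 1710 bp before the pho84 start codon to the end of its ORF. It stood at -2.10, -1.89, -1.72 and -1.52 on replicates 1, 3, 2 and 4 (mean -1.81, SD 0.26). Between this run and that of pho84 were 2 probes at 0.02 and -0.96. The probe at -0.96 missed the threshold in the first immunoprecipitation only (-0.50, against -1.43 in the second). The probe at 0.02 had no value on replicate 1. So by the rule the prt2 and pho84 runs were apart, a gap that rests on these 2 probes. The RNA ahead of pho1, nc-pho1, lay wholly within the longer run.

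At tgp1, the transporter gene for glycerophosphodiesters, the run lay over the upstream RNA and not over the gene. Its 7 probes stood at -1.95, -1.93, -1.56 and -1.51 on replicates 1, 3, 2 and 4 (mean -1.74, SD 0.29). The 6 probes over nc-tgp1 ahead of the start codon averaged -1.84 (SD 0.25). The 5 probes of the tgp1 ORF averaged 0.14 (SD 0.01) and stood at -1.08, -0.40, 0.94, 0.89 and 0.38 from its 5′ to its 3′ end, so only the first was in the run. The run covered 6.24% of the tgp1 ORF. In all, 3 of the 7 measured genes of the phosphate list overlapped a run, beside 3.78% of all measured coding genes, and 1 did after loess or in the deposited table. A phosphate transporter gene outside the list, pho841, was picked out after its values were seen: all 5 probes of its ORF were in a run, at -1.26. The regulators pho7 and csk1 stood at 0.05 and 0.57, and pho4, an acid phosphatase gene, at -0.38.

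**Figure D4:**
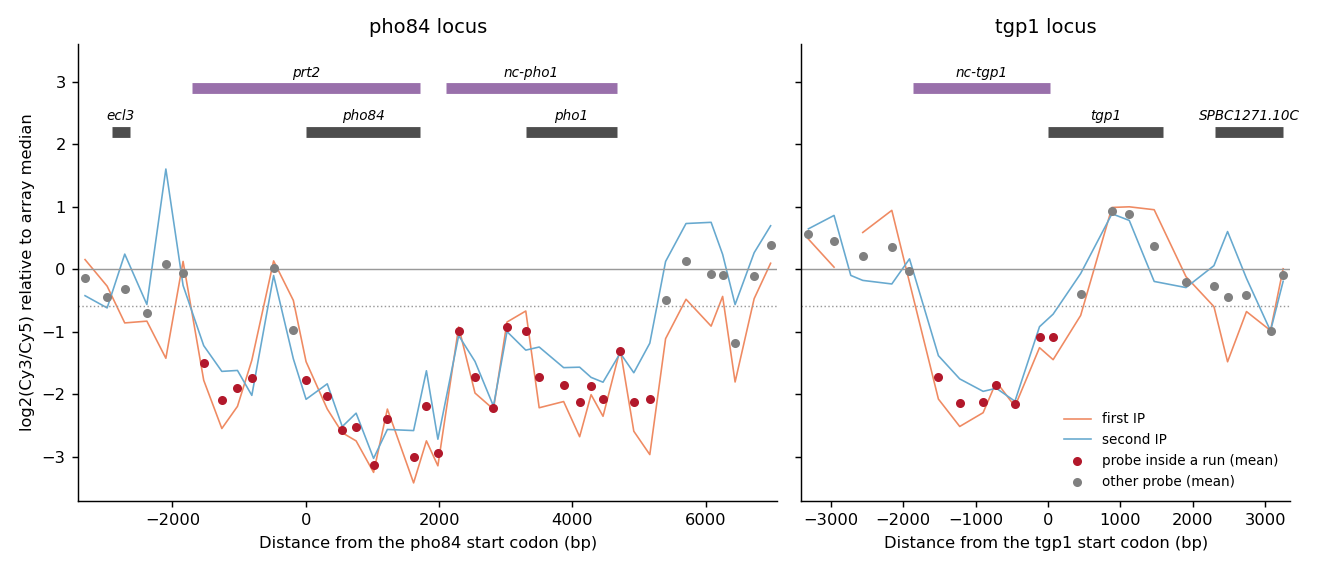
Probe values of log2(Cy3/Cy5) relative to the array median at pho84 and pho1 (left) and at tgp1 (right), by distance from the start codon in the gene's direction. Lines are the 2 immunoprecipitations, red points the means of probes inside a run, grey points other probes, dark bars ORFs and purple bars non-coding RNAs. At pho84 the run spans both ORFs and the space between, with means down to -3.13, whereas at tgp1 it ends at the start of the ORF.

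Of the enzymes of glycolysis and fermentation, 9 of 16 measured genes overlapped a run, where 3.78% of all measured coding genes did. Behind adh1 came pdc101, pyruvate decarboxylase, with a run at -2.19, -2.41, -1.84 and -1.91 on replicates 1, 3, 2 and 4 (mean -2.08, SD 0.31). pgk1, phosphoglycerate kinase, stood at -2.27, -2.13, -1.70 and -1.92 (mean -2.003, SD 0.27). In both the first immunoprecipitation lay below the second. fba1, aldolase, and eno101, enolase, had means of -1.96 (SD 0.45) and -1.96 (SD 0.41), with replicate 4 at -1.42 and -1.47. These 5 runs covered between 86.7 and 100.0% of the ORF. Outside runs, the alphabetically first genes were adh4, eno102 and gpd3, with ORF means of -0.47, 0.40 and -0.73. The count includes pgi1, glucose-6-phosphate isomerase, which the run of its convergent neighbour noc4 touched over 1.51% of the ORF with 0 of its 5 probes. After loess, 6 of the 16 overlapped a run, and 1.07% of all measured coding genes did.

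Of the cytosolic ribosomal protein genes, 45 of 108 measured overlapped a run, beside 3.78% of all measured coding genes. The symbol pattern of this list also takes in 3 subunit genes of RNase P and RNase MRP, none of them in a run. The lowest run means belonged to rps2602 (-1.88, SD 0.29), rps2202 (-1.87, SD 0.01), rps2 (-1.74), rpp102 (-1.71) and rpl35 (-1.64). The rps2202 run stood at -1.92, -1.83, -1.76 and -1.96 on replicates 1, 3, 2 and 4, with both immunoprecipitations overlapping. That of rps2602 lay in the stretch where it converges with SPAC1805.10, and stood at -2.20, -1.97, -2.23 and -1.12, with replicate 4 well above the others. The genes are short, with a median of 2 probes in the ORF against 4 for all genes. Of the 63 outside runs, 60 had an ORF mean below 0 (median -0.76), 55 had fewer than 3 probes in the ORF, and 32 had at least 1 probe past the threshold in both means. The ORF means of rpl102, rpl1101 and rpl1202, the alphabetically first outside runs, were -0.65, -0.92 and -0.66. The median ORF mean over all measured genes was -0.03. After loess 11 of the 108 overlapped a run, beside 1.07% of all.

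Near-identical copies were more frequent among genes in runs. A copy with at least 90% identity over at least 60 bp existed for 15 of the 159 genes (9.43%) and for 0.87% of the others, and 12 of the 15 were ribosomal protein genes. A probe in such a gene, rps2202 among them, can also bind DNA of its copy, so their values cannot be assigned to 1 of the 2 genes with certainty.

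In the lists that follow, the counts again stand beside 3.78% of all measured coding genes, and beside 1.07% after loess. Of 5 measured translation factors 2 overlapped a run (1 after loess), tef3 and tef5, the latter at -1.23. Among chaperones 6 of 23 did (2 after loess), the lowest after ssa2 being sks2, a ribosome-associated Hsp70 (-1.69), mcp60, the mitochondrial Hsp60 (-1.68), bip1 (-1.52) and sti1, a cochaperone (-0.95). The chaperonin genes cct1 and cct2 and the cochaperone gene aha1 stood outside runs, with ORF means of -0.26, -0.01 and -0.24. Of 27 genes of amino acid and nucleotide synthesis, 8 overlapped a run, and 1 did after loess. met26 led, followed by lys4 (-1.60), the homocitrate synthase of lysine synthesis, ilv5 (-1.56) of branched-chain amino acids, sam1 (-1.53), the S-adenosylmethionine synthetase, and ura1, which starts pyrimidine synthesis. The ura1 ORF of 6735 bp carried 3 separate runs, at -1.48, -1.04 and -1.17 from its 5′ to its 3′ end.

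Of 17 cell wall and surface genes, 1 overlapped a run after loess and 0 in the deposited table. Before, 6 did: ecm33, psu1 (-1.85), exg1, a glucosidase of the wall (-1.48), knh2 (-1.41), eng1 and bgs4. bgs4, for a subunit of glucan synthase, had the weakest of these, -1.85 and -0.21 in the first immunoprecipitation and -0.72 and -0.69 in the second (mean -0.87, SD 0.23), so 1 array carried much of it. Of 17 transporters and pumps, 4 overlapped a run (2 after loess): mfs3, the hexose transporters ght8 (-1.78) and ght5 (-1.42), and car2 (-1.13), which the annotation calls an ornithine transaminase and so no transporter. ght8 and ght5 are near-identical copies of each other in part of their sequence. The histone list had 3 measured genes, 2 of them in runs and 1 after loess. The divergent pair htb1 and hta1, for histones H2B and H2A, shared a run of 9 probes at -1.75, -1.68, -1.62 and -1.18 on replicates 1, 3, 2 and 4 (mean -1.56, SD 0.22), and hht2, for histone H3, stood at -1.10. Of 9 genes of actin, tubulin and the contractile ring, 1 overlapped a run (0 after loess), act1, actin (-1.77). Of 15 stress defence genes 2 did (2 after loess): sod1, superoxide dismutase (-1.62), and gpd1, which makes glycerol 3-phosphate (-1.33). Of 25 proteasome genes 1 did (4.00%, beside 3.78% of all measured coding genes, and 0 after loess). This was pre10, whose run (-1.26) covered 16.9% of the ORF with 1 of its 4 probes. The pre10 ORF as a whole stood at -0.47. Of 11 iron and copper genes 1 did, and 0 after loess or with normexp background correction. ctr4, a copper transporter subunit, differed from most in having the second immunoprecipitation lower: its run stood at -0.52, -2.22, -1.81 and -2.08 on replicates 1, 3, 2 and 4 (mean -1.61, SD 0.47), with replicate 1 apart.

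No run overlapped any of the 19 measured Mediator genes, 9 RNA polymerase II subunit genes or 8 genes of transcription kinases and cyclins. The cdk11 ORF itself stood at 0.08, that of cdk9 at 0.06 and that of the L-type cyclin lcp1 at 0.15. The same held for 46 mitochondrial ribosomal protein genes, 50 genes of ribosome biogenesis and 80 genes named mug for their rise in meiosis. Their median ORF means were -0.06, -0.09 and 0.06. With normexp, 1 mitochondrial ribosomal protein gene and 1 of the ribosome biogenesis list overlapped a run. These counts hold for the lists only: rlp7, annotated as a ribosome biogenesis protein, gar2, for nucleolin, and nog1, for a GTP-binding protein of ribosome assembly, are outside them and overlapped runs at -1.77, -1.36 and -0.91, as was seen from their values. Each of these counts stands beside 3.78% of all measured coding genes. At that share, lists of 8, 9 or 19 genes can easily hold none, so their counts do not set these genes apart from the rest.

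**Figure D5:**
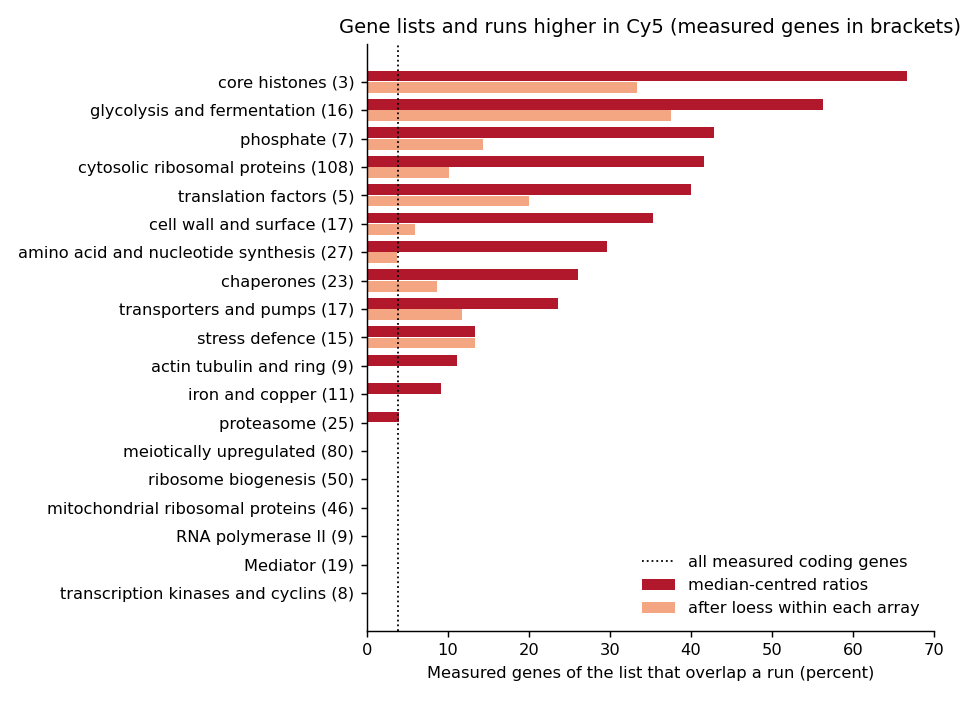
Share of the measured genes of each list that overlap a run higher in Cy5, with the number of measured genes in brackets. Dark bars are median-centred ratios, light bars ratios after loess within each array, and the dotted line the 3.78% of all measured coding genes in the former. Glycolysis has 9 of 16 genes and ribosomal proteins 45 of 108, and 6 lists have none.

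Of 57 snoRNA genes with a probe within 250 bp, 17 overlapped a run (29.8%), and 2 of 6 genes annotated as snRNA did (33.3%). These 2 were snu2 and snR48, the latter in the run of rps3. The lowest probes of their runs lay 310 and 318 bp from the RNA genes. Among coding genes, counted with a probe in the ORF, the share was 3.78%. For tRNA genes the count was 1 of 119 (0.84%), and for all genes annotated as rRNA 2 of 32 (6.25%). For other non-coding RNAs it was 2 of 29 (6.9%), for long non-coding RNAs 143 of 5828 (2.45%) and for pseudogenes 0 of 21. Probes inside a structural RNA gene were in a run in 15 of 51 cases (29.4%), against 2.24% of all matched probes. The median over all 51 was -0.69, and over the 15 it was -2.02. snoRNAs guide the modification or cleavage of ribosomal RNA in the nucleolus, and some lie in introns or next to protein genes. The lowest snoRNA run after that of snoU14 overlapped pdi4 by 0.20% of its ORF and lay over snR30, at -2.55, -2.10, -2.23 and -1.75 on replicates 1, 3, 2 and 4 (mean -2.16, SD 0.24). The pdi4 ORF stood at 0.06. A run over snoZ16 and mrp1, the RNA of RNase MRP, stood at -1.92, -2.68, -1.69 and -1.47 (mean -1.94, SD 0.51). That over snoR61 stood at -2.65, -1.58, -1.89 and -1.36 (mean -1.87, SD 0.35), with replicate 1 apart from the rest.

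Runs over snu3, the U3 snoRNA, and over rlp7 with snoR39a stood at -1.72 (SD 0.27) and -1.77 (SD 0.22). The 6 probes over the 3′ part of psf3, a replication factor gene, and the adjoining snoRNAs snoZ3, snoZ4, snoZ5 and snoZ7 formed a run at -1.64. In cpc2, for the RACK1 protein of the ribosome, snoU24b lay within the run, at -1.69. Over the 13 snoRNA runs the lowest probe lay within 100 bp of the snoRNA gene in 7. It lay 468 bp away for snoU14 and 103 bp away for snR30. After loess 9 of the runs found overlapped a snoRNA gene.

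Of the 16 runs with no coding gene, 5 overlapped a snoRNA gene, 1 snu2, 1 a tRNA gene and 2 a 5S rRNA gene, and 10 a long non-coding RNA. nam1, on chromosome II from 1742512 to 1743103, had 3 probes at -3.06, -1.45, -1.83 and -1.19 on replicates 1, 3, 2 and 4 (mean -1.88, SD 0.53). Replicate 1 was lower than the rest by more than 1. rrk1, the RNA of RNase P, lay in a run at -1.89, -1.81, -1.80 and -1.15 (mean -1.66, SD 0.27), with replicate 4 apart. The run over the long non-coding RNA SPNCRNA.1197 stood at -1.77, -1.65, -1.71 and -1.49 (mean -1.65, SD 0.08), with the arrays close. The tRNA run, over SPATRNALEU.03, was weaker at -1.61, -1.07, -0.91 and -0.60 (mean -1.05, SD 0.41). The 5S rRNA runs stood at -1.47 (SD 0.04) over SPRRNA.37 and -1.06 (SD 0.11) over SPRRNA.26.

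Genes in runs had a higher codon adaptation index and a higher GC content than the others. On a codon adaptation index with weights from the ribosomal protein genes, genes in runs other than these had a median of 0.584 (n = 114) and the others 0.416 (n = 3980). Of 10 equal classes of this index, the highest had 74 of 410 genes in runs (18.05%), and the other 9 had between 0.489 and 2.201%. Their GC content had a median of 44.3%, against 39.5%, and 21.9% of them had an intron, against 48.2%. The ORF length was a median of 1446 bp, against 1179 bp. Among all 4202 genes the highest of 10 GC classes had 102 of 421 genes in runs (24.2%), the next 21 of 420 (5.00%), and the other 8 between 0.24 and 1.92%.

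Codon choice and GC content moved together, and both moved with the runs. Leaving out ribosomal protein genes, 51 of 165 genes in the highest class of both overlapped a run (30.9%). In the highest GC class, 7 of 157 genes with a lower codon index did (4.46%). In the 7 lowest GC classes, 6 of 78 genes of the highest codon class did (7.69%), against 22 of 2863 of the rest (0.77%). After loess, 6.34% of the genes in the highest codon class and 0.22% of the rest overlapped a run. With ribosomal protein genes included, 45 genes were then in runs, 35 of them among the 159. Their median GC content was 46.3%, against 46.0% for the 159. The part of GC content in the runs was not tested.

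Of the 159 genes in runs, 69 were in none of the lists. Those described above include sol1, pdi4, SPAC1805.10, ptr2, rlp7, ole1, SPBPB7E8.01, but2, sum3, cpc2, psf3, gar2, nog1 and pho841. The 6 matched runs with the largest difference between the immunoprecipitations were those of ser3, rps27 with rps29, rpl1701 with osh2, acs1, nam1 and mfs3. In ser3, for an enzyme of serine synthesis, the arrays gave -2.12 and -1.56 in the first immunoprecipitation and -1.01 and -0.75 in the second (mean -1.36, SD 0.68). In rps27 they gave -2.11, -1.37, -0.97 and -0.83 (mean -1.32, SD 0.60). In acs1, acetyl-CoA ligase, they gave -1.94, -0.88, -0.60 and -0.71 (mean -1.03, SD 0.53). In all 6 the first immunoprecipitation, whose arrays had the wider spread over all probes, was the lower. In ser3, rps27, rpl1701, mfs3 and acs1 the arrays of the 2 immunoprecipitations did not overlap.

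At the weak end, the highest run means were those of hsp104, the disaggregase (-0.79, SD 0.01), ssn6 (-0.82, SD 0.07), rpl402 (-0.82, SD 0.04), rpl1902 (-0.85, SD 0.11) and bgs4. By their weakest probe, the runs just inside the threshold were those of ubc4 (-0.5862), SPAC1327.01C (-0.5867), rpp201 (-0.5884) and gln1 (-0.5907). Just outside it were stretches over rps1101 (-0.5823), rps403 (-0.5817), chc1 (-0.5760) and asn1 (-0.5751). The stretch over rps1101 had a mean of -1.10 and that over rps403 of -1.18, and both were lower than the 5 highest run means, so that the weakest probe alone kept them out. The first probe outside a run had a median of -0.34, and in 205 of 402 cases it was past the threshold in 1 immunoprecipitation only.

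The 38 runs on the unmatched part of chromosome I were like the rest in size, with a median mean of -1.44 against -1.33 for the matched runs and a median of 4 probes. They held 3.24% of the probes there, against 2.24% elsewhere. The longest, from 3865217 to 3869909 in the array's coordinates, had 16 probes at -2.49, -2.27, -2.29 and -2.08 on replicates 1, 3, 2 and 4 (mean -2.30, SD 0.17). Runs from 4001574 to 4003814 and from 4446888 to 4449080 stood at -2.34 (SD 0.20) and -2.12 (SD 0.25), with 9 probes each. Those from 3881982 to 3884681 and from 4425422 to 4427949 stood at -1.90 (SD 0.34) and -1.48 (SD 0.01). No gene is named for these runs, since a shift of 6100 bp, the median of the best shifts found there, is longer than any of them.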

How the data were processed

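Each of the 4 scanner files holds, per the file headers, spot intensities in 2 channels, the percent of pixels above background and saturated, and flags. The deposited value table is log2 by its values and runs as Cy5 over Cy3. Its centring and direction are not stated, and its column medians were 0.008, -0.004, -0.014 and -0.013. The genome build, aligner and normalisation are not given in the sources used here. Signal over background, and the number of arrays, limit the precision.

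The log2 of the Cy3 over the Cy5 mean intensity was taken without background subtraction, spots with negative flags (16.4, 5.34, 8.16 and 1.07% on replicates 1 to 4) were left out, and each array was centred on its median. Replicates 1 and 3 and replicates 2 and 4 were averaged by immunoprecipitation. Each probe had to reach 1.5-fold in both means. No test of the ratios was run, since all arrays entered the choice of runs. The Dixon ratios given below are flags only. The members, gene lists and tables were chosen with earlier results of these data known. The rule was tested on simulated data with planted runs.

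The 42707 genomic probes (median 60 nt, centres a median of 264.5 bp apart) were compared with ASM294v3 in 126 windows of 100000 bp: brighter probes should fall on GC-rich reference positions, and the positions were shifted to find the best fit. Of these, 107 windows with 85.2% of the probes matched. Genes were named only there, and the 19 others begin at 3700001 on chromosome I. A gene counted as measured with at least 1 probe in its ORF, or within 250 bp for non-coding genes. Copies were searched with BLAST 2.17.0.

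Named were the 15 runs with the most probes, the 20 lowest, the 5 highest, the 5 stretches just outside, the lowest without coding genes and of each non-coding kind, the 6 that differed most between immunoprecipitations, the 5 longest unmatched runs, and up to 5 genes a list. Alternatives used limma 3.58.1 in R 4.3.3 (loess with span 0.3, normexp with offset 50). Other steps used Python 3.11.15, numpy 2.4.6, pandas 2.3.3, scipy 1.17.1, Biopython 1.88 and matplotlib 3.10.9. Promoters were read from the RefSeq genome and annotation.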

Additional observations from a re-analysis of the deposited data

Results flagged for a closer look

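Of the 52 named runs, 2 had 1 array far from the other 3 by Dixon's criterion. Chance alone would mark about 1 in 20 sets of independent values of equal spread. These arrays are duplicates of 2 immunoprecipitations, differ in spread and entered the choice of runs. That rate therefore does not apply, and the flags are a description only. In the run over SPBPB7E8.01, replicate 3 stood at -1.66, below the other arrays, with a ratio of 0.843. In the run over rrk1, replicate 4 stood at -1.15, above the other arrays, with a ratio of 0.879.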

How the results depend on the processing

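No comparison between groups, paired or not, was possible because the series has 1 group only. The ratio itself pairs the 2 channels within each array. After loess within each array there were 105 runs higher in Cy5 (22 in Cy3), with a median of -1.11 and 45 coding genes. The deposited table gave 102 runs (24 in Cy3), a median of -1.13 and 45 genes. A 2-fold threshold gave 90 runs (0 in Cy3), a median of -1.75 and 64 genes. At least 5 probes gave 73 runs (0 in Cy3) and 62 genes, and at least 2 probes gave 446 (127 in Cy3) and 310 genes. With every array past the threshold there were 95 runs (0 in Cy3), with a median of -1.72 and 71 genes. On the Cy3 side alone, normexp gave 53 runs, centring on the mode 8 and probes well above background 5. Under those 3 settings, and with saturated spots left out, poor spots kept or centres at most 500 bp apart, the Cy5 runs stayed between 191 and 274. Leaving out each array in turn gave 172 to 202 Cy5 runs, 11 to 37 Cy3 runs (37 without replicate 4), medians from -1.503 to -1.33, and 130 to 157 genes. Of the 202 runs, 167, 159, 157 and 161 were overlapped by a run found without replicates 1 to 4. Of the 52 named runs, 1 changed sign: acs1 stood at 0.0427 after loess and at 0.0976 in the deposited table. Under each of these, 48 others moved by more than 1 SD and 3 did not. The cause was not tested. With 1 group, no control precipitation and n = 2, no error rate can be set for single runs. Both channels were well above background on all arrays at 68.7% of probes, which limits what the others can show.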
